A study of Mus musculus with 2 samples.

Results

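The genes described here are 7 genes of the LIF signalling pathway, chosen as a fixed list of symbols out of the 32285 genes in the gene tables. They are the receptor genes Lifr and Il6st, the signal transducer Stat3, and Socs3, Pim1, Pim3 and Gbx2, which are known targets of STAT3. All 7 were found once in the gene table. They were followed in mouse embryonic stem cells, labelled R1 in both libraries, kept for 72 hours in N2B27 medium and read by droplet single-cell RNA sequencing. The LB library came from cells given LIF and BMP4, grown on gelatin. The LBPXRS library came from cells that also had LIF and BMP4, together with PD0325901 (a MEK inhibitor), Xav939 (a tankyrase inhibitor), SB431542 (an inhibitor of the NODAL and activin receptors) and a compound labelled Resorcyclic lactone, on fibronectin. Medium and substrate therefore cannot be told apart, and LIF was present in both media.

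LIF binds the receptor chain encoded by Lifr, which pairs with gp130, the product of Il6st. The JAK kinases bound to this pair phosphorylate STAT3, which enters the nucleus and activates genes that keep mouse embryonic stem cells undifferentiated. Socs3 encodes a feedback inhibitor that binds gp130 and JAK, Pim1 and Pim3 encode serine/threonine kinases that favour growth and survival, and Gbx2 encodes a homeobox factor that can support self-renewal downstream of LIF.

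Each condition had 1 library, so differences have no replicate check and no p-value is given. Values are UMIs (unique molecular identifiers, 1 per captured RNA molecule) summed over cells and given per 1000000 UMIs of the library (CPM), with exact 95% Poisson intervals that cover counting error only. A gene was counted as different when it was at least 2-fold higher or lower, as the log2 ratio of LBPXRS to LB after 1 was added to both CPM values, with at least 10 CPM in either library. The LB library gave 1783 cells with a median of 25418 UMIs, and the LBPXRS library 2705 cells with a median of 19058. Both libraries carried embryonic stem cell markers: 6 naive pluripotency genes summed to 582 CPM in LB and 1160 CPM in LBPXRS. LB also held 245 CPM of 4 primitive streak genes, against 2.41 CPM in LBPXRS, and 4 fibroblast genes summed to 8.88 CPM in LB and 1.77 CPM in LBPXRS, where Col1a2 and Col3a1 were at 0. The libraries stood apart in other ways. The 4 Y-linked genes checked had 2872 UMIs in LB and 1 in LBPXRS, and among genes with a mean of at least 20 CPM those of chromosomes 8 (288 genes) and 11 (465 genes) had median log2 ratios of -0.60 and -0.65, while the medians of the other chromosomes lay between -0.17 and 0.012. Over all 12618 genes with a mean of at least 1 CPM the median was -0.14. Whether both libraries came from the same subline was not tested, so in every ratio of LBPXRS to LB a difference between sublines cannot be told apart from that of medium and substrate. The libraries shared 10 cell barcodes, 8 of them among the cells used.

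Between the libraries, the kinase gene Pim1 differed most among the members that met the CPM minimum, and it was the only 1 of these 6 past 2-fold. Within cells of 1 marker class, described further on, its log2 ratio was 0.77 and no longer past 2-fold. Pim3, Socs3 and Lifr were higher in LBPXRS by less than 2-fold, Il6st and Stat3 were lower by less than 2-fold, and Gbx2, with few UMIs in both libraries, was lower. For comparison, 7.98% of the 7661 genes that met the minimum were past 2-fold on the higher side in LBPXRS and 10.4% on the lower side. The plot of member levels by library shows these gaps beside their counting intervals.

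**Figure D1:**
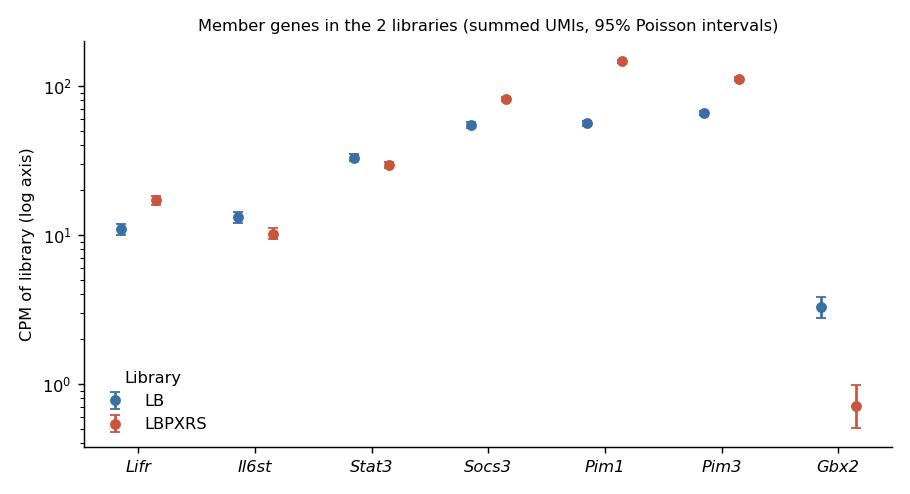
CPM of each member in LB (blue) and LBPXRS (red) on a log axis, with 95% Poisson intervals from summed UMIs. Pim1 stands at 55.9 CPM in LB and 146 CPM in LBPXRS, while Gbx2 goes the other way, at 3.28 and 0.714 CPM.

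The receptor genes went in different directions. Lifr (ENSMUSG00000054263, mm10 chr15:7090614-7197489), which encodes the LIF-binding chain, had 494 UMIs in LB, or 10.9 CPM (9.92 to 11.9), and 884 UMIs in LBPXRS, or 17.1 CPM (15.9 to 18.2). The ratio was 1.57 (1.41 to 1.76), and the counting intervals of the libraries did not overlap. Il6st (ENSMUSG00000021756, chr13:112464070-112510086), which encodes the shared chain gp130, was counted 596 times in LB, a level of 13.1 CPM (12.1 to 14.2), and 528 times in LBPXRS, a level of 10.2 CPM (9.34 to 11.1). Its log2 ratio of -0.33 was -0.17 after the median of chromosome 13 was subtracted. Stat3 (ENSMUSG00000004040, chr11:100885098-100939540), the transcription factor itself, stood at 32.9 CPM in LB (31.2 to 34.6, from 1496 UMIs), while LBPXRS had 29.4 CPM (28.0 to 31.0, from 1526 UMIs). Its log2 ratio of -0.15 depended on the scaling: it was -0.0056 with TMM and 0.49 after the median of chromosome 11 was subtracted. Stat5a, on the opposite strand, overlaps Stat3 in the annotation, with 144 UMIs in LB and 212 in LBPXRS. Whether the counting used strand is not given in the sources used here, so the values of overlapping genes are uncertain.

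Socs3 (ENSMUSG00000053113, chr11:117966079-117970047), the feedback inhibitor, had 2482 UMIs in LB, or 54.6 CPM (52.4 to 56.8), and 4233 UMIs in LBPXRS, or 81.7 CPM (79.2 to 84.2). The ratio was 1.50 (1.42 to 1.57), and the intervals of the libraries did not overlap. Socs3 lies on chromosome 11, whose genes were lower as a whole in LBPXRS, and its log2 ratio of 0.57 became 1.22 after that median was subtracted. The part of this chromosome-wide shift in the level of Socs3 was not tested.

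A consensus site of STAT proteins, TTCNNNGAA, was searched on both strands in RefSeq promoter windows (GRCm38.p6, 250 bases before to 50 after each start), because these genes are known for their control by STAT3. The motif reads the same on both strands. All 7 members had at least 1 window and Lifr and Pim1 had 2. A match was found in the window of Socs3 and in no other window of the members, and 8.30% of all 32851 windows held at least 1 match. The Socs3 match, shown in capitals, starts 154 bases before the RefSeq start, at chr11:117969512-117969520. The stretch shown is chr11:117969452-117969616 on the minus strand, which overlaps no annotated Socs3 exon. It lies inside the GENCODE gene, whose start at 117970047 is further upstream than the RefSeq start used here. The second stretch is the one before Pim1, chr17:29490535-29490752 on the plus strand, shown because Pim1 differed most between the libraries among the members that met the CPM minimum. Its capitals mark the GC-box core GGGCGG or its reverse complement CCGCCC, which stands 6 times in this stretch of 218 bases. The whole window of 300 bases, of which the stretch is the part before the annotated exon, held 7 matches, and the other Pim1 window held 0. A count of at least 7 was reached by 0.627% of all windows, and Pim3 had 4 matches, Il6st 3, Socs3 and Gbx2 2 each, Stat3 1, and Lifr 2 and 0 in its windows. At least 1 such match was present in 35.7% of windows. A match describes the letters only and says nothing of binding.
Socs3: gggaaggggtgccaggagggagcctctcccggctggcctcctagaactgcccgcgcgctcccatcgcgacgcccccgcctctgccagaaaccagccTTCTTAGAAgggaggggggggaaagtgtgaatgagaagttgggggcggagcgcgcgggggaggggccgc
Pim1: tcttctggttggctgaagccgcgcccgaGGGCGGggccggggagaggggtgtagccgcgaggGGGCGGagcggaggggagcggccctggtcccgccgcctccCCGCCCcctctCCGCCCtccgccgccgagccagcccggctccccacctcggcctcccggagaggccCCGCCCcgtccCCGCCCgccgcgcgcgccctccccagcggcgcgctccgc

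The kinase genes Pim1 and Pim3 were both higher in LBPXRS. Pim1 (ENSMUSG00000024014, chr17:29490753-29496112) had 2542 UMIs in LB, or 55.9 CPM (53.7 to 58.1), and 7559 UMIs in LBPXRS, or 146 CPM (143 to 149). The ratio was 2.61 (2.49 to 2.73), with a log2 ratio of 1.37 that did not move when the median of chromosome 17 was subtracted. Gm26885, annotated on the opposite strand of the Pim1 locus, was higher too, at 6.90 CPM in LB and 30.1 CPM in LBPXRS. Pim3 (ENSMUSG00000035828, chr15:88862186-88865726) stood at 65.6 CPM in LB (63.2 to 67.9, from 2982 UMIs), while LBPXRS had 111 CPM (108 to 114, from 5765 UMIs), a ratio of 1.70 (1.62 to 1.77). Gbx2 (ENSMUSG00000034486, chr1:89927956-89931179) had 149 UMIs in LB, or 3.28 CPM (2.77 to 3.85), and 37 UMIs in LBPXRS, or 0.714 CPM (0.503 to 0.984). It was 4.59-fold lower in LBPXRS by counts (3.18 to 6.77), opposite in direction to Pim1, Pim3 and Socs3. It stayed under the CPM minimum in both libraries, so it was not counted among the genes past 2-fold. D130058E05Rik, on the opposite strand at the Gbx2 locus, was also lower, at 4.51 and 1.83 CPM.

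Per cell, UMIs were drawn at random down to 5000 to put both libraries at 1 depth, in 1733 LB cells and 2621 LBPXRS cells. In LB 22.0% of cells held Pim1 (20.1 to 24.1, exact binomial), while in LBPXRS 49.9% did (47.9 to 51.8). At full depth the Pim1 shares were 57.1% and 84.6%. Shares for Pim3 were 24.4% in LB (22.4 to 26.5) and 38.8% in LBPXRS (37.0 to 40.7), and 64.9% and 80.4% at full depth. Those for Socs3 were 22.4% in LB (20.4 to 24.4) and 30.8% in LBPXRS (29.0 to 32.6), and 57.4% and 67.2% at full depth. For these 3 genes and for Lifr, at 4.39% and 8.05%, the LBPXRS interval lay above that of LB. Lifr without thinning was in 22.2% and 27.2% of cells. The intervals overlapped for Il6st, at 7.21% and 5.84%, and for Stat3, at 15.7% and 14.7%; without thinning Il6st was in 26.6% and 17.3%, and Stat3 in 52.3% and 40.9%. Thinned to 3000 UMIs, Il6st had separate intervals, at 4.94% and 2.78%, and those of Gbx2, at 0.909% and 0.263%, overlapped. Gbx2 was found in 31 LB cells (1.79%, 1.22 to 2.53) and 10 LBPXRS cells (0.382%, 0.183 to 0.701), or 6.17% and 1.29% without thinning. Neither library held a cell type known to lack these genes, so the share that free RNA alone would give has no measure here.

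**Figure D2:**
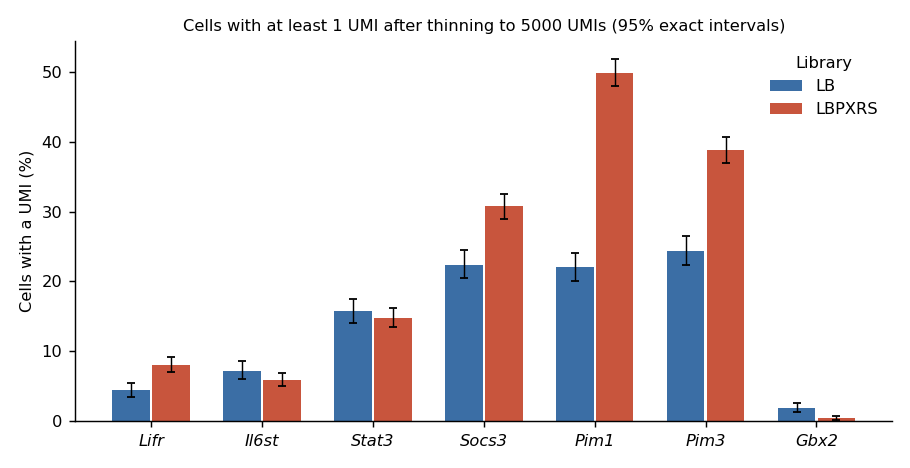
Percent of cells with at least 1 UMI of each member after thinning to 5000 UMIs, in LB (blue) and LBPXRS (red), with exact 95% binomial intervals. Pim1 has the widest gap, 22.0% against 49.9%, and the intervals of Il6st and of Stat3 overlap between libraries.

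Counts of Socs3 were more uneven between cells than those of Stat3. In thinned cells the variance of Socs3 was 1.29 times its mean in LB and 1.26 times in LBPXRS, against 0.952 and 0.973 for Stat3, where a value of 1 is what counting alone gives. Pim1 had 1.24 in LB and 1.14 in LBPXRS, and Pim3 1.20 and 1.17. The receptor genes Lifr and Il6st were both seen in 7 of 1733 thinned LB cells (0.404%, 0.163 to 0.830). In LBPXRS both were seen in 17 of 2621 thinned cells (0.649%, 0.378 to 1.04). The products of their separate shares, 0.316% and 0.470%, lie within these intervals. Without thinning Lifr and Il6st shared 7.40% of LB cells and 5.58% of LBPXRS cells, where the product of their separate shares gives 5.92% and 4.71%. Unthinned cells differ in depth, and the part of depth in these values was not tested. Cells with and without a Socs3 UMI were then compared after thinning. No other member differed 2-fold between them in either library, where 0.27% of all genes were higher and 0.296% lower in LB, and 0.0143% and 0.0286% in LBPXRS. Pim3 had 80.9 CPM in the 388 LB cells with Socs3 and 55.8 CPM in the 1345 without, and 126 against 98.6 CPM in LBPXRS. The LB gap, 0.53 on the log2 scale, was 0.15 with cells thinned to 10000 UMIs and 0.43 without thinning. Pim1 had 67.0 against 51.6 CPM in LB and 148 against 145 CPM in LBPXRS.

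LB cells were uneven in kind, and the members were followed across cells positive for marker genes. Each LB cell was put in the first class that fitted: at least 2 UMIs of Hand1 or Foxf1 together (mesoderm factors, 294 cells), of Mesp1 (nascent mesoderm, 65), of T (primitive streak, 266), or of Cdx2, Gata3 and Tfap2a together (trophoblast factors, 55). Among the rest, cells with at least 2 UMIs of Zfp42 and Esrrb together (naive pluripotency factors) were split into those with under 2 UMIs of Dnmt3b (516) and those with at least 2 (338). A further 162 cells had at least 2 UMIs of Dnmt3b only, a methyltransferase gene that is raised when naive pluripotency is left, and 87 cells, at a median depth of 8759 UMIs, had none of these. Cells of 1 library are not replicates, so these values are a description.

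Pim1 and Pim3 were highest in LB cells with Zfp42 or Esrrb and without Dnmt3b, and cells with both kinds of marker ranked next. Pim1 had 84.8 CPM (79.8 to 89.9) in the cells without Dnmt3b, 58.4 CPM (53.7 to 63.3) in those with it, and 32.5 CPM (27.2 to 38.5) in cells with Dnmt3b only. The lowest Pim1 level, 22.8 CPM (15.7 to 32.0), was in Mesp1-positive cells, while T-positive cells had 36.3 CPM and Hand1 or Foxf1 cells 44.6 CPM. Pim3 had 98.0 CPM (92.7 to 104), 74.6 CPM (69.3 to 80.1) and 31.5 CPM (26.3 to 37.4) in the same 3 classes, the last being its lowest. For both genes these top classes and the next in order, Hand1 or Foxf1 cells (Pim3 at 53.9 CPM), had separate intervals, and neighbours further down overlapped. Every LB class lay below the LBPXRS level of 146 CPM for Pim1 and 111 CPM for Pim3.

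**Figure D3:**
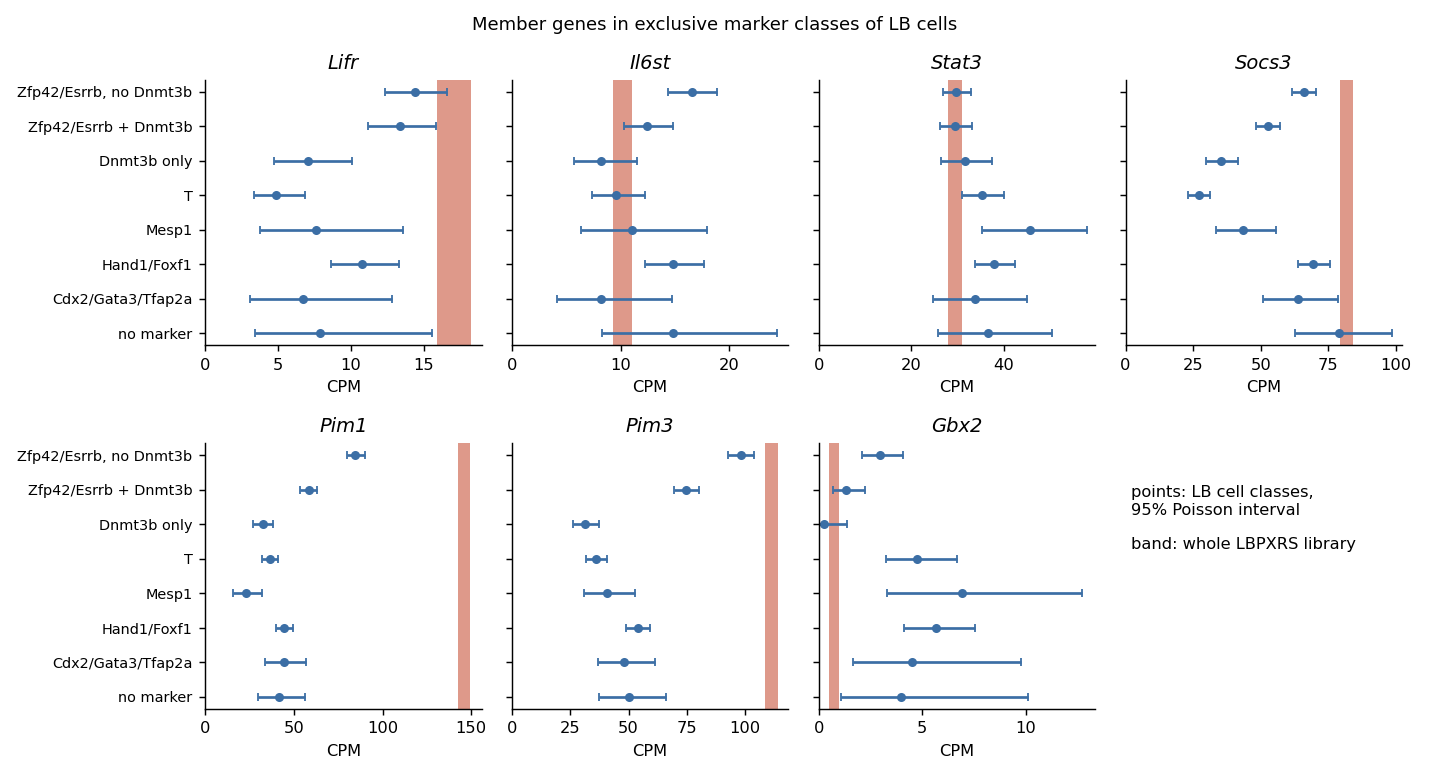
CPM of each member in 8 exclusive classes of LB cells (blue points, 95% Poisson intervals), with the interval of the whole LBPXRS library as a red band. Pim1 and Pim3 are highest in Zfp42 or Esrrb cells without Dnmt3b, at 84.8 and 98.0 CPM, whereas Gbx2 is highest in Mesp1-positive cells, at 6.91 CPM.

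Socs3 had another order. Its highest value, 79.0 CPM (62.7 to 98.4), was in the shallow cells with no marker. It was low in T-positive cells, at 27.0 CPM (23.2 to 31.2), and in cells with Dnmt3b only, at 35.4 CPM (29.9 to 41.6). Hand1 or Foxf1 cells had 69.5 CPM (63.8 to 75.5), about the level of the Zfp42 or Esrrb cells without Dnmt3b, 65.9 CPM (61.5 to 70.5). Lifr had 14.4 CPM (12.4 to 16.6) in Zfp42 or Esrrb cells without Dnmt3b and 4.87 CPM (3.35 to 6.84) in T-positive cells, with 10.8 CPM in Hand1 or Foxf1 cells. Il6st ranged from 8.24 to 16.5 CPM and Stat3 from 29.5 to 45.6 CPM over the 8 classes, and for these genes, Lifr, Socs3 and Gbx2 no neighbours in the order of classes had separate intervals. Classes further apart did: Il6st had 16.5 CPM (14.4 to 18.9) in Zfp42 or Esrrb cells without Dnmt3b and 8.24 CPM (5.71 to 11.5) in cells with Dnmt3b only. Stat3 was highest in Mesp1-positive cells, at 45.6 CPM (35.3 to 58.0), and lowest in Zfp42 or Esrrb cells with Dnmt3b, at 29.5 CPM (26.3 to 33.1). Gbx2 was also highest in Mesp1-positive cells, at 6.91 CPM (3.31 to 12.7, from 10 UMIs), had 5.64 CPM (4.12 to 7.55) in Hand1 or Foxf1 cells, and was lowest in cells with Dnmt3b only, with 1 UMI (0.242 CPM, 0.00614 to 1.35).

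Taking markers singly, cells with at least 2 UMIs of a marker were set against LB cells with 0, for 13 markers whose groups overlap. Of 78 comparisons in which a member reached 10 CPM on either side, 5 were at least 2-fold lower in the positive cells and 2 at least 2-fold higher. T-positive cells (389, median depth 24294 UMIs) against T-zero cells (1253, 25689 UMIs) had Lifr at 5.20 and 12.7 CPM and Pim3 at 35.2 and 75.5 CPM, with 4.05% of all genes past 2-fold lower and 4.32% higher. Mesp1-positive cells (160) had Pim1 at 26.8 CPM against 58.9 CPM and Pim3 at 31.2 against 69.2 CPM, and 5.85% of all genes were past 2-fold lower and 5.39% higher. Of the Mesp1-positive cells, 58.8% were also Hand1-positive and 55.0% also T-positive. The 34 cells positive for Gata6, a factor of primitive endoderm and of mesoderm, were also Hand1-positive in 52.9%, Mesp1-positive in 26.5% and Foxf1-positive in 23.5%, and 5 primitive endoderm genes summed to 9.65 CPM in LB. These cells had Pim1 at 24.0 CPM against 57.6 CPM, where 7.74% of genes were lower. Lifr was higher in them, at 26.1 CPM (16.9 to 38.6, from 25 UMIs) against 10.3 CPM, where 7.06% of genes were higher. Zfp42-positive cells (949) had Pim3 at 85.2 against 38.8 CPM, past 2-fold, and Pim1 at 71.0 against 35.4 CPM, a log2 ratio of 0.99. In that comparison 5.61% of genes were past 2-fold higher and 9.57% lower. No member that reached 10 CPM was past 2-fold for the other 9 markers. The higher and lower shares of all genes there were 8.27% and 5.26% for Hand1, 7.76% and 6.62% for Foxf1, 6.57% and 4.61% for Cdx2, and 7.72% and 4.92% for Gata3. They were 0.712% and 0.643% for Dnmt3b, 2.71% and 2.27% for Pou3f1, 4.14% and 9.86% for Esrrb, 2.98% and 4.77% for Nanog, and 3.48% and 7.25% for Klf4. The calls depended on the marker threshold: with 1 UMI taken as positive there were 0 lower and 0 higher, and with 3 UMIs 7 lower and 3 higher. A minimum of 50 positive and 50 zero cells, which leaves out Gata3 and Gata6, gave 4 lower and 1 higher. With markers read at 1 UMI after thinning there were 7 lower, which kept Pim1 and Pim3 for Mesp1 and Pim1 for Gata6 but not Lifr or Pim3 for T.

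Gbx2 went the other way from Pim1 and Pim3 for some of these markers, among them T and Mesp1. It had 7.55 CPM (5.93 to 9.48) in T-positive cells against 2.00 CPM (1.54 to 2.56) in T-zero cells and 8.49 against 2.73 CPM for Mesp1. Its log2 ratio for Cdx2 was 1.33. It was low in cells positive for Pou3f1, a formative pluripotency factor, at 0.725 CPM (0.235 to 1.69) against 3.92 CPM. Pim1 and Pim3 were lower there too, with log2 ratios of -0.31 and -0.44. For Dnmt3b, Foxf1 and Gata6, Gbx2, Pim1 and Pim3 were also all lower in value. None of these Gbx2 values reached 10 CPM, so they were not counted among the calls.

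In LBPXRS only Gata3, Zfp42, Esrrb, Nanog and Klf4 of the 13 markers gave at least 50 positive and 50 zero cells. No member was past 2-fold in the Gata3, Esrrb, Nanog or Klf4 comparison, where the shares of all genes past 2-fold higher and lower were 1.54% and 0.577%, 0.0145% and 0.102%, 0.258% and 0.658%, and 0.172% and 0.644% in that order. The 62 Zfp42-zero cells had a median depth of 10442 UMIs, against 19322.5 in the 2552 Zfp42-positive cells. They had Lifr at 5.61 CPM (1.53 to 14.4, from 4 UMIs) against 17.3 CPM, and Il6st at 4.21 CPM (0.867 to 12.3, from 3 UMIs) against 10.4 CPM. Both passed 2-fold, as did 4.43% of all genes in that direction and 4.31% in the other, but the Il6st intervals overlapped. Pim1 was at 98.1 CPM (76.5 to 124) in the Zfp42-zero cells, above each LB class in value. The part of depth in these values was not tested.

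When the libraries were compared within cells of 1 marker class, the gaps of most members shrank. Cells with Zfp42 or Esrrb and without Dnmt3b numbered 516 in LB, 28.9% of its cells, and 2528 in LBPXRS, or 93.5%. In them Pim1 was 1.71-fold higher in LBPXRS (1.60 to 1.82) and Pim3 1.13-fold higher (1.07 to 1.21), against 2.61 and 1.70 over all cells. Socs3 was 1.25-fold higher (1.16 to 1.35) and Lifr 1.19-fold higher (1.02 to 1.41). Stat3 had a ratio of 0.994 (0.887 to 1.11). Il6st was 1.60-fold lower in LBPXRS (1.35 to 1.88), a wider gap than over all cells, and Gbx2 was 3.93-fold lower (2.43 to 6.35). No member that met the CPM minimum was past 2-fold here, where 8.17% of genes were higher and 5.36% lower. With all cells that had 2 UMIs of Zfp42 plus Esrrb kept, also those with Dnmt3b, the log2 ratio of Pim1 was 1.04.

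The wider LIF pathway was read from a list of 44 other genes, of which 39 had a mean of at least 1 CPM. Its median log2 ratio was -0.11, near the -0.14 of all genes, with 17 genes above 0 and 22 below. Less the chromosome medians, the list stood at 0.24 and all genes at 0.020. Of the 24 that met the CPM minimum, 5 were at least 2-fold higher in LBPXRS, 4 at least 2-fold lower and 15 neither, where 7.98% of all genes were higher and 10.4% lower. Target genes made up 12 of the 24, and of these 4 were higher, 4 lower and 4 neither. Klf4 and Tfcp2l1, naive pluripotency factors, had log2 ratios of 2.45 and 2.19, Icam1, a cell adhesion molecule, 1.57, and Cebpb, a bZIP factor, 1.07. Lower were Myc at -3.62, Irf1, an interferon response factor, at -3.20, Pim2 at -2.15 and Junb, an AP-1 component, at -1.85. Irf1 lies on chromosome 11 and Junb on chromosome 8, and less the medians of these chromosomes they were at -2.56 and -1.25. The remaining gene was Pias3, an inhibitor of STAT3, at 1.29. The kinase gene Jak1 had 11.3 CPM in LB and 15.5 CPM in LBPXRS, and Jak2 and Tyk2 had log2 ratios of 0.15 and -0.03. Among the inhibitors, Socs1 was at 16.5 and 8.06 CPM and Socs2 at 69.4 and 87.1 CPM. Socs1 was 2.05-fold lower by counts (1.82 to 2.32) but at -0.95 on the log2 scale with the added 1 CPM, so it was not counted.

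**Figure D4:**
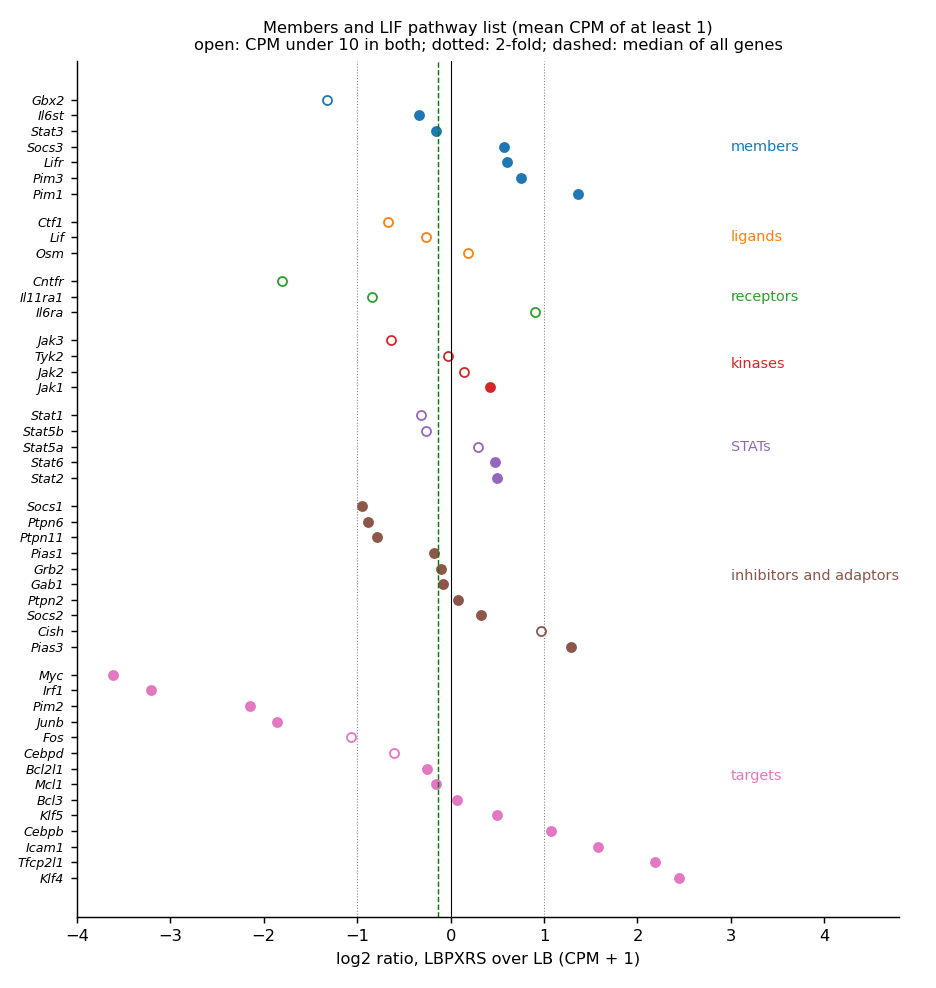
log2 ratio of LBPXRS to LB for the members and the 39 listed pathway genes with a mean of at least 1 CPM, by role; open circles had under 10 CPM in both libraries. The target genes spread from Myc at -3.62 to Klf4 at 2.45, and the kinases and STATs lie within 2-fold of 0.

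Pim2, the remaining Pim kinase gene, went the other way from Pim1 and Pim3 between the libraries. Its level was 75.7 CPM in LB (73.2 to 78.2), while LBPXRS had 16.3 CPM (15.2 to 17.4). Within LB it had 324 CPM (307 to 342) in cells with Dnmt3b only and 173 CPM (163 to 183) in T-positive cells. Its lowest level, 8.70 CPM (7.16 to 10.5), was in Zfp42 or Esrrb cells without Dnmt3b, where Pim1 and Pim3 were highest. Cells with both kinds of marker lay between, at 53.2 CPM (48.7 to 57.9), and Hand1 or Foxf1 cells had 16.4 CPM. In thinned LB cells Pim2 had 33.5 CPM (25.9 to 42.7) with a Socs3 UMI and 75.4 CPM (69.0 to 82.2) without. This was past 2-fold, where 0.296% of all genes were lower. In LBPXRS the values were 16.9 and 18.3 CPM. No other listed target gene that reached 10 CPM on either side passed 2-fold there. In Zfp42 or Esrrb cells without Dnmt3b the direction between libraries turned: Pim2 was 1.88-fold higher in LBPXRS (1.54 to 2.31), at 16.4 against 8.70 CPM.

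**Figure D5:**
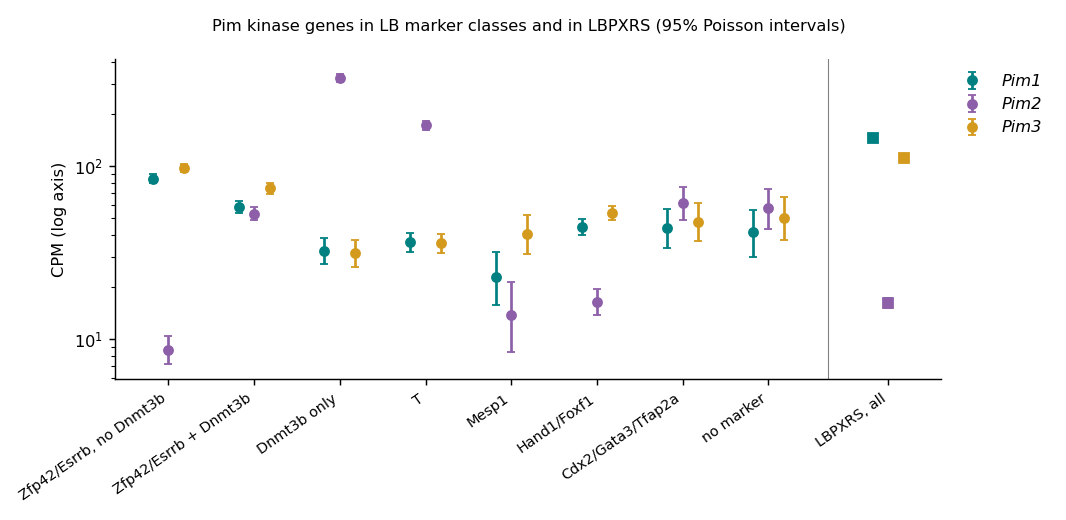
CPM of Pim1, Pim2 and Pim3 on a log axis in 8 classes of LB cells (circles) and in all LBPXRS cells (squares), with 95% Poisson intervals. Pim2 is highest in cells with Dnmt3b only, at 324 CPM, and lowest in Zfp42 or Esrrb cells without Dnmt3b, at 8.70 CPM, where Pim1 and Pim3 are highest.

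The other pathway genes past 2-fold kept their direction in that same class. Cebpb was 5.51-fold higher in LBPXRS (4.77 to 6.40), at 83.5 against 15.1 CPM, a wider gap than the 39.1 and 83.3 CPM of all cells. Klf4 was 2.68-fold higher (2.52 to 2.86), Icam1 2.15-fold (1.88 to 2.48), Tfcp2l1 2.05-fold (1.89 to 2.23) and Pias3 2.96-fold (2.29 to 3.89). Junb was 2.67-fold lower (2.39 to 2.98), Irf1 5.73-fold lower (4.49 to 7.35) and Myc 34.4-fold lower (16.6 to 82.7), the last from 72 UMIs in LB and 8 in LBPXRS.

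The genes most like each member over the 8 LB classes were sought by Pearson correlation of log2(CPM + 1) among 7015 genes. The classes share 1 library and some hold few cells, so the correlations are descriptive. Taking the highest of 7015 genes over 8 classes also favours high values. Tbx3, a T-box factor listed here among the naive pluripotency genes, came first for Socs3 (r = 0.94), followed by Sumf2 (r = 0.93). The first for Pim3 was Tubb2b (r = 0.98), then Khdc3 (r = 0.95), and for Pim1 they were Srbd1 (r = 0.96) and Tfpi (r = 0.95). Lifr was most like Tcea1 and Ncoa3 (r = 0.96 and 0.95), Il6st most like Limk2 and Mrpl19 (0.94 and 0.89), Stat3 most like Sgta and Dll3 (0.99 and 0.98), and Gbx2 most like Smim14 and Rsbn1 (0.97 and 0.96). Among the members themselves, Pim1 and Pim3 had r = 0.88, Lifr and Pim3 0.89, and Stat3 and Pim1 -0.77.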

How the data were processed

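The authors deposited a matrix of raw UMI counts for each library. The software was Cell Ranger 4.0.0, as the file headers state, and the build mm10, per the submitters' processing notes. Libraries used 10x Genomics 3′ version 2 chemistry, per the labels' protocols. The annotation release and the cell-calling settings are not given in the sources used here. Gene positions come from GENCODE M21 (GRCm38, the same build).

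Barcodes with under 1000 genes or over 10% mitochondrial UMIs were left out (225 of 2008 in LB, 406 of 3111 in LBPXRS). Scrublet (scanpy 1.11.5) marked 12 LB cells (0.673%) and 14 LBPXRS cells (0.518%), which were kept. Counts were summed and scaled to 1000000 UMIs, with a pseudocount of 1 CPM in log2 ratios, which understates differences of low genes. For shares, cells were thinned to 5000 UMIs, leaving out 50 LB and 84 LBPXRS cells that were shallower. Intervals are exact (Poisson, Clopper-Pearson, and conditional binomial for ratios) at 95% and cover counting error only. TMM factors came from edgeR 4.0.16. The 2-fold rule and the ratio intervals were tested on simulated counts with counting noise only, so variation between libraries was not covered.

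Named were the members, listed pathway genes past 2-fold, and the 2 genes most like each member; further listed genes are given as examples, chosen after their values were seen. The members, lists and markers were chosen with earlier results of these data known. Alternatives concerned scaling, pseudocount, filters, doublets, cell weights, chromosome medians, cell subsets, marker thresholds and thinning.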

Additional observations from a re-analysis of the deposited data

Results flagged for a closer look

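Among the barcodes left out of the comparisons, Pim1 had 166 CPM (138 to 199, from 121 UMIs in 406 barcodes) in LBPXRS and 68.9 CPM (51.3 to 90.6, from 51 UMIs in 225 barcodes) in LB. It is given here because it is a signal in data the comparisons did not use and lies above the interval of LB. The other 6 members did not have separate intervals in these barcodes.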

How the results depend on the processing

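With 1 library per condition there is no replicate check. No paired analysis was possible because each condition has 1 library and no test was run. The count of members past 2-fold between libraries, 1 (Pim1), became 2 without the CPM minimum (with Gbx2) and 2 after subtraction of chromosome medians (with Socs3), and it was 1 in the other 9 alternatives. The log2 ratio of Pim1 ranged from 1.04 to 1.52 over these alternatives but was 0.77 in the class with Zfp42 or Esrrb and without Dnmt3b, where no member was past 2-fold, and Stat3 had the opposite sign in 1 of 10 alternatives. With TMM scaling, 781 genes were at least 2-fold higher and 596 lower, against 611 and 794, and the median of all genes was 0.0031. The median of the pathway list, -0.11, was 0.045 with TMM and 0.071 over genes with a mean of at least 10 CPM. Less chromosome medians it was 0.24, where the median of all genes was 0.020. Values within 0.1 were taken as unchanged. With a marker threshold of 1 UMI there were 0 lower and 0 higher marker comparisons, against 5 and 2, while the other 4 alternatives gave 5 to 7 and 2 to 3; the cause was not tested. With at least 50 cells on each side, an alternative chosen after seeing the data, there were 4 and 1. Of the 5 lower calls, Lifr and Pim3 for T were lost with markers at 1 UMI after thinning, which added Pim1 for T and Il6st for Mesp1, Pou3f1 and Gata6. Members with separate share intervals numbered 5, and 7 without thinning, where depth differs between libraries. Thinning to 3000 UMIs also gave 5, with Il6st in place of Gbx2. In the comparison of cells with and without Socs3, 0 members passed 2-fold in all 3 alternatives. The log2 ratio of Pim3 in LB, 0.53, was 0.15 with thinning to 10000 UMIs and 0.43 without thinning. Depth limits Gbx2 most, with 37 UMIs in LBPXRS.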

Other observations

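Of the 44 genes of the pathway list, 20 were under 10 CPM in both libraries and were left out of the counts past 2-fold. Values of 9 of them, chosen after they were seen, follow. Cntfr, the CNTF receptor gene, had 4.70 CPM (4.10 to 5.38) in LB and 0.637 CPM (0.438 to 0.894) in LBPXRS. Il11ra1, an IL-11 receptor gene, had 6.07 and 2.93 CPM, while Il6ra, the IL-6 receptor gene, went the other way, with 1.21 CPM (0.911 to 1.57) and 3.14 CPM (2.68 to 3.67). Osmr, the oncostatin M receptor gene, had 2 UMIs in each library. Fos, an AP-1 component among the targets, had 9.91 CPM (9.02 to 10.9) in LB and 4.23 CPM (3.68 to 4.82) in LBPXRS. Of the kinase genes, Jak3 had 9.28 and 5.59 CPM. It lies on chromosome 8, and its log2 ratio of -0.64 was -0.039 less the median of that chromosome. Of the ligand genes, Lif had 1.71 CPM (1.36 to 2.14) in LB and 1.25 CPM (0.968 to 1.60) in LBPXRS, with overlapping intervals, and Ctf1, which encodes cardiotrophin, had 6.20 and 3.53 CPM. Cish, a feedback inhibitor of the SOCS family, had 2.73 CPM (2.27 to 3.25) in LB and 6.27 CPM (5.61 to 6.99) in LBPXRS.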
